A study of Bos indicus with 12 samples.

Results

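Of the 629700 cytosines covered on autosomes 1 to 29, 27471 (4.36%) were isolated, that is, no cytosine of another CpG was covered within 300 bp on either strand. The paired cytosine on the opposite strand of the same CpG did not count as a neighbour, and neither methylation nor group was used to choose them. The other 602229 autosomal cytosines (95.6%) had at least 1 such neighbour and served as the comparison. Isolated refers to the cytosines in the table and not to the genome sequence, since CpGs that were not covered may lie closer.

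Reduced representation bisulfite sequencing (RRBS) was carried out on *longissimus thoracis* muscle of 12 Nelore (*Bos indicus*) steers, each with a library of its own, which form a Tough group of 6 and a Tender group of 6. The Tough group had high breeding values for shear force, the force needed to cut the meat, and the Tender group low ones. Shear force was taken at 7 days after slaughter per the labels, while the study's text gives 14. All steers came from feedlots with the same ration and handling, the animals of a group had different sires, and there was no treatment. The labels give neither the age nor the genotype of single animals. The DNA came from whole muscle, so a methylation level averages over muscle fibre nuclei and all other cells of the tissue, and a change in cell proportions cannot be told apart from a change within cells.

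RRBS cuts DNA with the enzyme *MspI*, which recognises CCGG whether or not the CpG in it is methylated, and short fragments are sequenced after bisulfite treatment. Bisulfite turns unmethylated cytosines into uracil, read as thymine, and leaves methylated cytosines unchanged. In mammals, most CpGs outside of CpG islands are methylated, while the dense CpGs of islands at gene starts are mostly unmethylated. RRBS covers islands heavily, because the cutting sites lie close together there.

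The totals of scaled reads ranged from 18399401 to 23470740 per animal, of which 4.88% to 6.19% fell on isolated cytosines. An isolated cytosine had a median coverage of 33.8 reads over the 12 animals (quartiles 26 and 48.8), against 27.6 (23.2 and 34.5) at the other cytosines. Counting alone gives a half-methylated cytosine a binomial error of 8.57% in a single animal at the median of 34 reads, and 15.8% at the minimum of 10. This covers counting error only, because PCR copies of a molecule could not be recognised. The animals were split by bisulfite conversion, which was higher in 3 Tough and 2 Tender animals and lower in 3 Tough and 4 Tender animals, and values within both conversion groups are given with the group differences.

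The isolated cytosines were evenly split between strands (plus 13688, minus 13783). The nearest covered cytosine of another CpG was a median of 4889 bp away (quartiles 1332 and 16630 bp), against 7 bp for the other cytosines. It was more than 1000 bp away for 21886 isolated cytosines (79.7%) and more than 10000 bp away for 9587 (34.9%). Both strands of the CpG were covered at 338 isolated cytosines, which form 169 CpGs (1.23% of the isolated cytosines), while 25.8% of the other cytosines had a covered pair. Nearly all isolated values therefore rest on the reads of 1 strand at 1 position.

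Isolated cytosines were found on all 29 autosomes. Their number ranged from 450 on chromosome 28 to 1399 on chromosome 19, with a median of 897. As a share of the covered cytosines they ranged from 2.72% on chromosome 25 to 6.20% on chromosome 20. Per Mb of covered span the order was another one, from 6.49 on chromosome 1 to 22.1 on chromosome 19. In the first 2 Mb of the chromosomes 3.11% of the covered cytosines were isolated, and in the last 1 Mb of the covered span 1.78%, against 4.60% elsewhere. The mean methylation of the isolated cytosines lay close in these regions, at 67.7%, 67.9% and 68.6%, whereas that of the other cytosines was 30.9%, 39.2% and 26.7%.

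Isolated cytosines were mostly methylated. The median of the mean methylation over 12 animals was 79.8% (quartiles 50.2% and 91.8%), against 3.47% (0.507% and 62.2%) at the other cytosines. A methylation of 90% or more was found at 8219 isolated cytosines (29.9%) and at 12.8% of the others. A methylation below 5% was found at 1027 isolated cytosines (3.74%) and at 54.8% of the others.

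The middle of the range was also more filled. Between 20% and 80% methylation lay 11014 isolated cytosines (40.1%), against 16.7% of the others. A further 5449 isolated cytosines (19.8%) lay between 80% and 90%, and 1762 (6.41%) between 5% and 20%. Cytosines without a single methylated read in any animal were rare, with 59 isolated (0.215%) against 86238 others (14.3%), and complete methylation in all 12 animals was found at 9 isolated (0.0328%) and 300 other cytosines (0.0498%). In bins of 5%, the isolated cytosines had their highest share, 16.0%, at 90% to 95% methylation, and the smallest, 1.98%, at 15% to 20%.

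**Figure D1:**
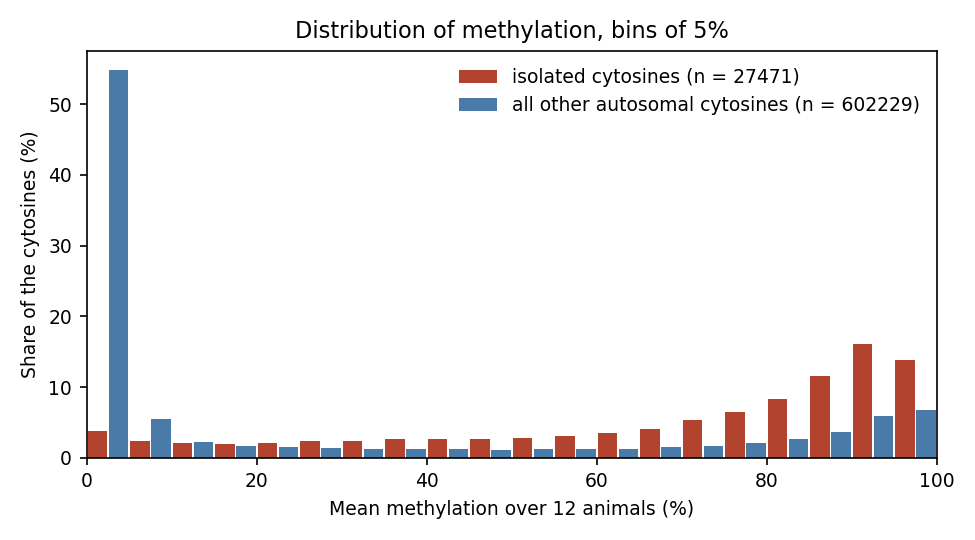
Share of the isolated (red) and of all other autosomal cytosines (blue), in percent, by mean methylation over the 12 animals in bins of 5%. The other cytosines pile up below 5% (54.8% of them), while the isolated ones rise towards a peak of 16.0% between 90% and 95%.

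The higher level was seen in each animal. The mean over isolated cytosines ranged from 66.7% in Tough 2 to 70.1% in Tender 8 and averaged 68.5% ± 0.832 (SD, n = 12), against 27.7% ± 0.413 at the other cytosines. The difference was 40.8 percentage points ± 0.605 (SD, n = 12), from 39.9 to 42.2, and isolated cytosines were higher in 12 of 12 animals (two-sided exact sign-flip permutation test over animals, p = 0.000488, the smallest this test can give). The lowest animal mean at isolated cytosines (66.7%) lay far above the highest at the other cytosines (28.1%).

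The same direction was found on 29 of 29 autosomes. The mean of the isolated cytosines was lowest on chromosome 19 (63.8%) and highest on chromosome 4 (72.9%). The isolated-minus-other difference was smallest on chromosome 25 (33.5 percentage points) and largest on chromosome 10 (47.8 percentage points).

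Methylation rose with coverage among isolated cytosines. It was 62.1% at the 1394 isolated cytosines with a mean coverage under 20 reads, 66.1% from 20 to 40 reads, 72.6% from 40 to 80 and 76.1% at the 2174 with 80 reads or more. In the same coverage classes the other cytosines stood at 24.3%, 26.2%, 35.6% and 48.0%, so the isolated cytosines were higher in each class. Coverage of 80 reads or more was found at 7.91% of the isolated and 1.72% of the other cytosines.

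The distance to the nearest covered cytosine chose the isolated set, and methylation across the limit is given as a description. Just outside the limit, the 1073 cytosines at 250 to 300 bp had a mean methylation of 56.0% and a median of 66.7%. Just inside, the 890 at 300 to 350 bp had a mean of 57.7% and a median of 69.9%. The shares below 5% were 13.4% and 13.5%, so no step lay at 300 bp.

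At 10 bp or less, where 63.7% of all autosomal cytosines lie, the mean was 20.7% and the median 1.52%. From 200 to 1000 bp the mean stayed between 56.0% and 57.7%. Beyond 1000 bp it rose again, to 64.8% at 1000 to 2000 bp, 68.5% at 2000 to 5000 bp, 71.6% at 5000 to 10000 bp and 75.3% beyond 10000 bp, where 1.64% of the cytosines were below 5%. Median coverage rose over the same distances, from 31.1 reads at 1000 to 2000 bp to 37.4 reads beyond 10000 bp, and its part in the rise was not tested.

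**Figure D2:**
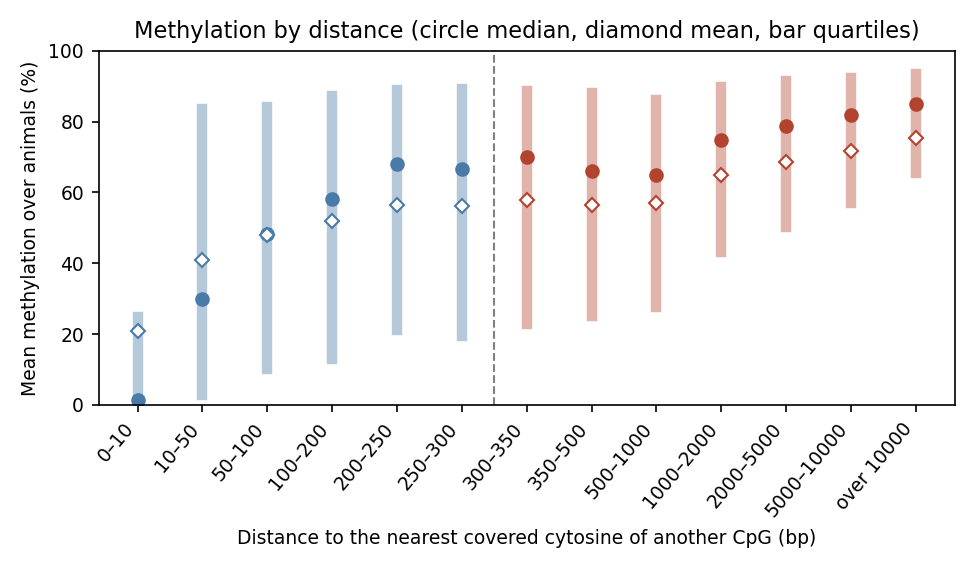
Mean methylation over the 12 animals (%) by distance to the nearest covered cytosine of another CpG (bp); circles are medians, open diamonds means and bars quartiles, with isolated cytosines in red and the 300 bp limit dashed. The median climbs from 1.52% at 10 bp or less to 85.1% beyond 10000 bp, with no step at the limit.

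Methylation of the nearest covered cytosine said less about a cytosine the farther away it was. The median absolute difference between the means of both was 1.27 percentage points at 10 bp or less, 9.53 at 300 to 350 bp and 17.4 at 500 to 1000 bp. It stayed between 21.5 and 24.9 beyond 1000 bp. Pearson's r across cytosines fell from 0.963 (401393 cytosines) over 0.736 at 300 to 350 bp (890) and 0.502 at 500 to 1000 bp (2864) to 0.0257 beyond 10000 bp (9587). Neighbouring cytosines share libraries and partly reads, and the same pair can enter from both sides, so these coefficients are descriptions.

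A nearest neighbour within 10 percentage points was found for 89.7% of the cytosines at 10 bp or less, for 51.3% at 300 to 350 bp and for 28.0% at 2000 to 5000 bp. The Tender minus Tough difference had a lower r than the level in every distance class. Its Pearson's r between a cytosine and its nearest neighbour was 0.290 at 10 bp or less and 0.240 at 10 to 50 bp. It was 0.0402 at 50 to 100 bp, 0.00858 at 100 to 200 bp, 0.0775 at 200 to 250 bp and -0.00597 at 250 to 300 bp. In every class beyond 300 bp it lay between -0.0141 and 0.0349. The part of shared reads and counting error in these values was not tested.

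At the 169 isolated CpGs with both strands covered, the means of the 2 cytosines differed by a median of 3.84 percentage points (quartiles 1.37 and 7.38) with a Pearson's r of 0.925 across CpGs. At the 77800 other CpGs with both strands the median was 0.824 percentage points (quartiles 0.2995 and 2.26) and r was 0.969, at a mean methylation of 16.3% against 64.0% at the isolated CpGs. Within single animals the median strand difference was 6.82 to 13.04 percentage points at isolated CpGs and 0 to 1.69 at the others. In 8 of the 169 isolated CpGs the means of the strands differed by more than 25 percentage points, against 1120 of the 77800 others.

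Animals were compared next. Over all 66 pairs of animals, Pearson's r of methylation across isolated cytosines ranged from 0.815 to 0.889 with a median of 0.864, against 0.940 to 0.962 with a median of 0.952 at the other cytosines. For isolated cytosines the median was 0.863 in the 30 pairs within a group and 0.866 in the 36 pairs between groups. The other cytosines hold many values near 0 in every animal, whose part in the higher r was not tested, and the coefficients are descriptions over cytosines that are not independent.

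The SD between the 6 animals of a group, averaged over both groups, had a median of 9.30 percentage points at isolated cytosines and 3.93 at the others. Because the spread of a percentage depends on its mean, the sets were compared within 5 classes of mean methylation, and each animal's mean absolute deviation from the other animals of its group was tested with a two-sided exact sign-flip permutation test over 12 animals, adjusted by Benjamini-Hochberg over the classes. An animal's deviation uses the values of the others in its group, so the 12 deviations are not independent, as the test assumes. The p-values on spread are therefore only approximate. The order of the sets was not the same in all classes.

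Between 20% and 80% methylation, isolated cytosines varied less than the others. The mean SD was 13.8 percentage points against 14.5, and the deviation was lower by 0.691 percentage points ± 0.301 (SD, n = 12), lower in 12 of 12 animals (exact permutation p = 0.000488, adjusted p = 0.000814). Between 80% and 90% the mean SD was 9.81 against 10.4 and the deviation was again lower in 12 of 12 animals (exact permutation, adjusted p = 0.000814). The isolated cytosines were covered more deeply, with a median of 32.3 reads against 28.2 in the first class and 35.2 against 28.8 in the second.

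The opposite order was found in the classes of low methylation, within which the levels of the sets differed. Below 5% the mean SD was 3.44 percentage points at isolated and 1.88 at other cytosines, and the deviation was higher in 12 of 12 animals (exact permutation, adjusted p = 0.000814). Within this class the isolated cytosines also had a higher methylation, with a median of 2.37% against 0.617%. Between 5% and 20% the mean SD was 9.30 against 8.74, higher in 11 of 12 animals (exact permutation, adjusted p = 0.00183), at medians of 12.05% against 8.80%. In the narrower bin of 10% to 20% this order was not seen, with a mean SD of 10.5 at isolated and 10.6 at other cytosines. At 90% and above the sets lay close, with a mean SD of 5.60 against 5.53 and a higher deviation in 8 of 12 animals (exact permutation, adjusted p = 0.0244).

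Isolated cytosines were covered more deeply in all 5 classes, also where they varied more (30.8 against 27 reads below 5%, and 30.5 against 27.7 from 5% to 20%). The spread was therefore also set against binomial sampling. Between 20% and 80%, binomial sampling at the coverage of each cytosine gave an SD of 8.61 at isolated and 9.08 at other cytosines, and the SD in excess of it was 12.1 against 12.9. The overdispersion factor, the variance between animals of a group over the binomial variance, had a median of 2.77 at isolated and 2.57 at other cytosines, so by the median of this measure the isolated cytosines varied more. By the mean of the factor they varied less, at 3.14 against 3.24. In all 5 classes the median factor was higher at isolated cytosines, from 1.70 against 0.783 below 5% to 2.31 against 1.99 at 90% and above.

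In coverage classes the SD between 20% and 80% methylation was 17.8 percentage points under 20 reads at isolated and 17.4 at other cytosines, and 14.8 against 14.9 from 20 to 40 reads. From 40 to 80 reads it was 11.5 against 11.98, and from 80 reads 8.55 against 9.50. The SD of isolated cytosines was thus lower from 40 reads upwards and higher under 20 reads. From 20 to 40 reads, where 58.1% of all isolated cytosines lay, it was nearly the same. The median overdispersion factor was higher at isolated cytosines in each class under 80 reads (2.67 against 2.52 from 20 to 40 reads). From 80 reads it was lower (3.25 against 3.38).

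**Figure D3:**
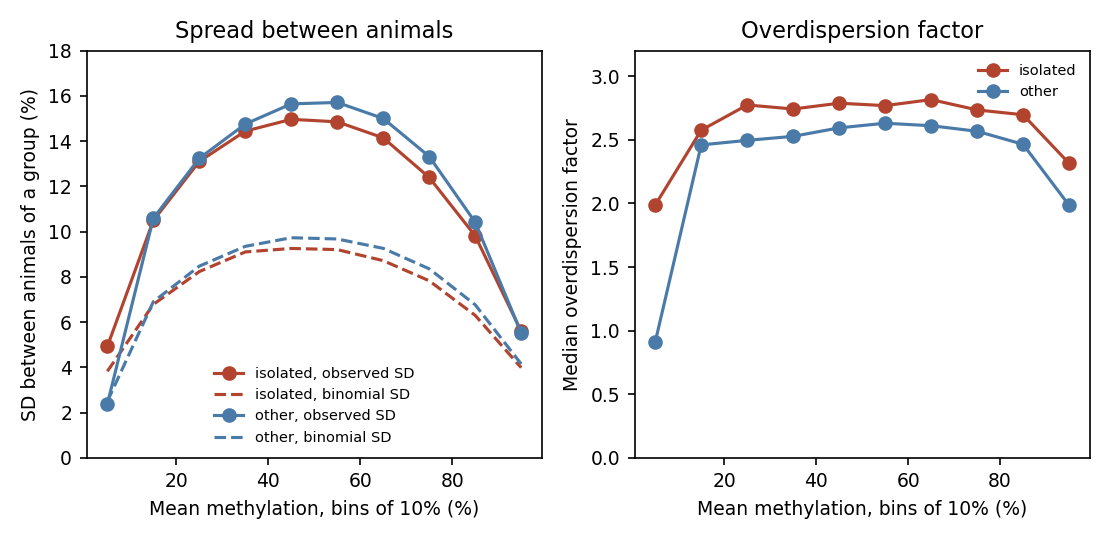
Left, mean SD between the 6 animals of a group (percentage points, averaged over both groups) by mean methylation in bins of 10%, with the binomial SD dashed; right, the median overdispersion factor in the same bins, both for isolated (red) and other cytosines (blue). In the bin at 50% to 60% the SD is 14.9 at isolated and 15.7 at other cytosines, while the median factor is 2.77 against 2.63.

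The largest SD among isolated cytosines with a mean of 20% to 80%, and without an all-or-none pattern (an animal at 5% or below beside one at 95% or above), was found at chromosome 29 position 25639222. Methylation there was 90.6% in Tough 1, 60% in Tough 6 and 0% in Tough 2 to 5. In the Tender group it was 92.6% in Tender 9, 53.6% in Tender 11, 47.8% in Tender 12, 8% in Tender 8 and 0% in Tender 7 and 10. The animals fell into 7 at or below 8% and 5 at 47.8% or more, with both groups on both sides. Reads of thymine count as unmethylated, and whether the animals differ in DNA sequence at this position was not tested. The mean group SD was 38.7 percentage points against a binomial SD of 6.56, at a coverage of 27 to 95 reads, and the nearest covered cytosine, 562 bp away, had a mean of 88.9%.

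The smallest SD over all 12 animals in the same range was found at chromosome 23 position 43937869, with 33.3% to 43.0% methylation (mean 39.7% ± 3.19, SD, n = 12) at 142 to 239 reads. Its binomial SD was 3.81, and the nearest covered cytosine, 15130 bp away, had a mean of 39.3%. The next 4 lay on chromosome 3 at position 117133563 (79.5% ± 3.43), chromosome 28 at 16072081 (78.6% ± 3.45), chromosome 11 at 95336345 (20.8% ± 3.58) and chromosome 21 at 55004288 (77.8% ± 3.64). All 5 were deeply covered, with at least 55 reads in each animal. At these 5 cytosines the animals of both groups overlapped.

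All-or-none cytosines, by this definition, numbered 80 among the isolated (0.291%) and 2196 among the others (0.365%).

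The Tender group was compared with the Tough group over all isolated cytosines. The means of the Tough animals had a lowest value of 66.7%, a median of 68.4% and a highest value of 69.0%, and those of the Tender animals 68.0%, 68.8% and 70.1%. The groups overlapped widely. The Tender mean was 0.676 percentage points higher (68.9% ± 0.762 against 68.2% ± 0.817, SD, n = 6 each), less than the spread within either group (two-sided exact permutation test, p = 0.173).

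Within the animals of higher bisulfite conversion the difference was 1.53 percentage points and within those of lower conversion 0.0478. At the other cytosines the Tender group was 0.394 percentage points higher (27.9% ± 0.206 against 27.5% ± 0.490, SD, n = 6 each; exact permutation p = 0.104), with 0.587 and 0.106 within the conversion groups. The shift at isolated cytosines was larger than that at the others by 0.282 percentage points, which did not pass the test (exact permutation p = 0.435), and this difference of shifts was 0.945 in the higher and -0.0583 in the lower conversion group. By chromosome, the isolated shift ranged from -0.0353 on chromosome 8 to 1.28 on chromosome 22 and was above 0 on 28 of 29 chromosomes, which share the same 12 animals.

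**Figure D4:**
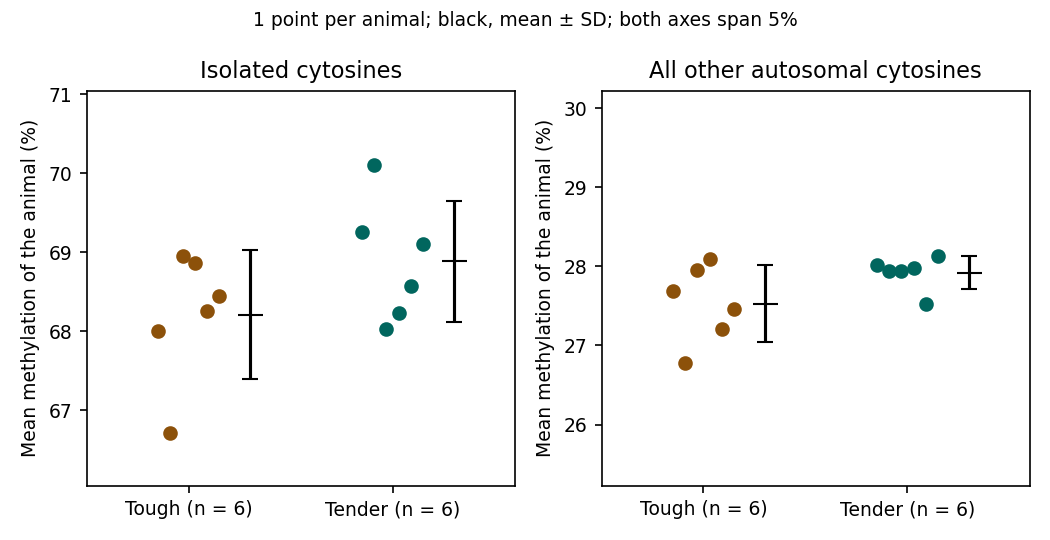
Mean methylation (%) of each animal over isolated (left) and all other autosomal cytosines (right), 1 point per animal, with the group mean ± SD in black; both axes span 5 percentage points. Tough 2 is lowest in both panels (66.7% and 26.8%), and the groups overlap in both.

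By class of mean methylation, the isolated shift was largest between 5% and 20%. Tough animals ranged from 10.4% to 12.2% with a median of 11.5%, and Tender animals from 11.98% to 13.9% with a median of 13.1%. The groups overlapped only at their edges, and the Tender mean was 1.56 percentage points higher (12.99% ± 0.933 against 11.4% ± 0.743, SD, n = 6 each; exact permutation p = 0.0130), which did not pass after adjustment over the 5 classes (adjusted p = 0.0649, exact permutation). The difference was 2.12 and 0.957 percentage points in the higher and lower conversion groups.

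Between 20% and 80% the Tender mean was 1.18 percentage points higher (exact permutation p = 0.108, adjusted p = 0.271), and 2.46 and 0.297 within the conversion groups. In the 3 other classes the shift was 0.127 to 0.297 percentage points (exact permutation, adjusted p of 0.745 each). None of the 5 differences of shift between isolated and other cytosines passed, with adjusted p of 0.871 to 0.961 (exact permutation).

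Single cytosines were tested with the logistic model over the whole table of 635469. A differentially methylated cytosine (DMC) had an adjusted p under 0.05 and a difference of pooled methylation above 25%. Of the isolated cytosines, 11 were DMCs (0.04%), 9 higher in Tender and 2 higher in Tough, against 0.019% of the whole table (0.0132% higher in Tender, 0.00582% higher in Tough) and 108 of the other autosomal cytosines (0.0179%). Since most of the other cytosines lay near 0%, the shares were also taken at a matched level. Among cytosines of 20% to 80%, DMCs made up 0.0817% of the isolated (9 of 11014) and 0.0925% of the others (93 of 100536), with the isolated share slightly the lower.

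At an unadjusted p under 0.05, 2520 isolated cytosines (9.17%) were found against 8.29% in the whole table, 1516 of them higher in Tender and 1004 higher in Tough. An adjusted p under 0.05 at any difference was reached by 65 (0.237%) against 0.135%. Between 20% and 80% methylation the sets lay close, at 0.209% of the isolated and 0.204% of the others. For the unadjusted p the shares there were 8.44% and 8.17%. The animals of the groups did not overlap at 59 isolated cytosines (0.215%) against 0.0965% in the whole table, with Tender higher at 37. At untied values, random group labels separate 6 against 6 animals with a probability of 0.00216, the smallest p of the exact permutation test. The share at isolated cytosines lay close to this value and was thus not raised above it. How far tied values lower the share in the whole table was not tested. In the whole table, 381 cytosines (0.06%) did not overlap with Tender higher. Between 20% and 80% methylation the groups did not overlap at 26 isolated (0.236%) and 220 other cytosines (0.219%). The pooled difference at an isolated cytosine had a median of 0.442 percentage points (quartiles -2.89 and 4.10), and its absolute size exceeded 25% at 99 (0.360%), against 0.219% of the other cytosines. Between 20% and 80% methylation the order turned, with 0.872% of the isolated and 1.197% of the others.

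The 11 isolated DMCs had pooled differences of 25.7 to 35.9 percentage points in size, adjusted p of 0.000766 to 0.0499 in the logistic model, and a coverage of 10 to 114 reads. By the location that the study's annotation gives them, 9 were intergenic and 2 intronic, 2 lay in CpG shores, and 0 in a CpG island. The nearest covered cytosine lay 304 to 66611 bp away and had a difference of the same sign at 6 of 11, with sizes of 0.57 to 16.98 percentage points. No second covered cytosine within 300 bp can therefore be set beside these calls. The closest gene is given as a place and not as a target. The exact permutation p given at single DMCs comes from the same animals and values, so it is no second support. It is not adjusted for the choice among 635469 cytosines, and it cannot fall under 0.00216.

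The isolated DMC with the smallest p lay on chromosome 9 at position 17549118, minus strand, in intergenic sequence closest to *MEI4*, a gene for a protein of meiotic recombination. Methylation in the Tough animals was 16.5% at the lowest, 34.5% at the median and 63.0% at the highest, and in the Tender animals 65.4%, 68.1% and 74.5%. The groups did not overlap, and the Tough animals spread over a wider range. The pooled difference was 35.9 percentage points (37.4% ± 15.3 against 69.3% ± 4.04, SD, n = 6 each; logistic model, adjusted p = 0.000766; exact permutation p = 0.00216). The nearest covered cytosine, 55868 bp away, had a pooled difference of 16.98 with an unadjusted p of 0.0345 in the same model.

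On chromosome 1 at position 95385095, minus strand, an isolated DMC lay in an intron of *FNDC3B*, which codes for a membrane protein with fibronectin type III domains. The Tough animals had 0%, 19.5% and 26.7% (lowest, median, highest) and the Tender animals 33.3%, 58.3% and 64.3%. Again no Tender animal reached down to the Tough range. Tender was higher by 35.1 percentage points (17.6% ± 9.28 against 53.9% ± 12.02, SD, n = 6 each; logistic model, adjusted p = 0.00113; exact permutation p = 0.00216), at 13 to 32 reads. The nearest covered cytosine at 66611 bp differed by 1.02.

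An intergenic DMC on chromosome 18 at position 55436914, plus strand, was closest to *HSD17B14*, a hydroxysteroid dehydrogenase gene. The Tough animals had 7.41%, 14.5% and 36.7% and the Tender animals 33.3%, 51.1% and 66.7%. The overlap came from Tough 3, the other Tough animals being at 17.1% or less. The pooled difference was 32.9 percentage points (17.2% ± 10.04 against 50.5% ± 11.4, SD, n = 6 each; logistic model, adjusted p = 0.00485; exact permutation p = 0.00433). The nearest covered cytosine, 1354 bp away, differed by -11.6, in the opposite direction, with an unadjusted p of 0.153.

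On chromosome 9 at position 102899238, plus strand, a DMC lay in a CpG shore closest to the transcript XR_003036495. The Tough animals had 0%, 6.35% and 15.4% and the Tender animals 13.3%, 37.5% and 63.6%. Tender 9 was the lowest Tender animal and fell within the Tough range. Pooled over animals, Tender was higher by 33.1 percentage points (6.53% ± 6.08 against 38.1% ± 17.7, SD, n = 6 each; logistic model, adjusted p = 0.00883; exact permutation p = 0.00433).

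The fifth, on chromosome 14 at position 16372832, minus strand, was intergenic and closest to *FBXO32*, which codes for atrogin-1, a ubiquitin ligase subunit of muscle protein breakdown. The Tough animals had 38.5%, 44.2% and 54.3% and the Tender animals 56.2%, 71.3% and 84.8%. The groups did not overlap, and the Tough animals lay within a narrow range. The pooled difference was 26.2 percentage points (44.6% ± 5.37 against 72.0% ± 10.97, SD, n = 6 each; logistic model, adjusted p = 0.0140; exact permutation p = 0.00216). The nearest covered cytosine, 4739 bp away, differed by -2.88. Without Tender 8 the difference was 22.8 and without Tender 9 24.2, both under the 25% limit.

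The other 4 DMCs higher in Tender were named after their values were seen. At chromosome 1 position 6270674, in an intron of the kainate receptor gene *GRIK1*, the means were 71.6% ± 15.4 in Tough and 93.2% ± 7.30 in Tender (SD, n = 6 each). At chromosome 6 position 67154365, closest to *SLC10A4*, a transporter gene, the means were 48.0% ± 11.7 and 77.1% ± 11.8. Its neighbour at 304 bp, just beyond the limit, had a mean of 97.8% and differed by 1.08.

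At chromosome 4 position 94251578, in a CpG shore closest to the imprinted gene *MEST*, the means were 39.9% ± 10.4 and 68.5% ± 12.7 (SD, n = 6 each). At chromosome 14 position 61865585, closest to *LOC112449534*, they were 43.2% ± 19.5 and 78.5% ± 10.5. The adjusted p of these 4 DMCs in the logistic model ranged from 0.0238 to 0.0473. In each of them the ranges of the groups overlapped or met.

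Of the 2 isolated DMCs higher in Tough, the first lay on chromosome 19 at position 58586151, minus strand, in intergenic sequence closest to *LOC101907523*. The Tough animals had 60%, 80.7% and 96% and the Tender animals 46.7%, 55% and 68.4%. Tough 1, at 60%, was the only Tough animal within the Tender range. The pooled difference was -27.1 percentage points (80.02% ± 12.03 against 55.4% ± 8.90, SD, n = 6 each; logistic model, adjusted p = 0.0326; exact permutation p = 0.00866), at 10 to 33 reads.

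The second lay on chromosome 4 at position 118869670, plus strand, in intergenic sequence closest to *PTPRN2*, a gene for a phosphatase-like protein of secretory vesicles. Tough 1, 2, 3 and 6 had 48.4%, 50%, 40% and 48.3%, while Tough 4 and 5 had 0%. In the Tender group Tender 7 had 10.5% and the other 5 animals 0%. The animals thus fell into 4 at 40% or more, all Tough, and 8 at 10.5% or less. Reads of thymine count as unmethylated, and whether the animals differ in DNA sequence at this position was not tested. The pooled difference was -34.2 percentage points (31.1% ± 24.4 against 1.75% ± 4.30, SD, n = 6 each; logistic model, adjusted p = 0.0499), and the exact permutation test gave p = 0.0606. The covered cytosine 769 bp away had a mean of 60.1% and differed by -0.57.

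**Figure D5:**
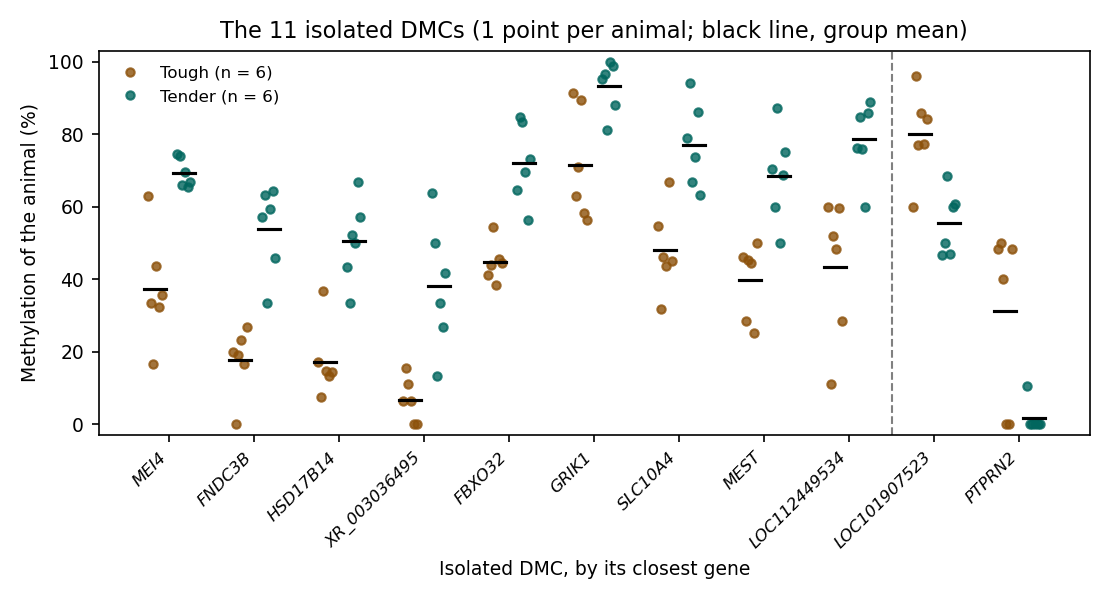
Methylation (%) of each animal at the 11 isolated DMCs, named by their closest gene; Tough brown, Tender green, with the group mean as a black line, and the 2 DMCs higher in Tough right of the dashed line. The groups do not overlap at the DMCs of *MEI4*, *FNDC3B* and *FBXO32*, and 7 animals are at 0% at that of *PTPRN2*.

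Within the conversion groups, the difference of animal means kept its direction at all 11 isolated DMCs. The 2 groups lay closest at *FBXO32* (27.3 percentage points over all animals, 25.9 in the higher and 28.0 in the lower conversion group) and XR_003036495 (31.6, 33.3 and 30.1). The values in the same order were 31.9, 35.9 and 28.1 at *MEI4*, 33.2, 38.3 and 27.9 at *HSD17B14* and 28.6, 29.9 and 25.3 at *MEST*. Wider gaps were found at *GRIK1* (21.7, 38.4 and 7.17), *LOC112449534* (35.3, 52.1 and 21.8), *FNDC3B* (36.3, 49.3 and 28.2) and *SLC10A4* (29.1, 42.3 and 22.5). At the DMCs higher in Tough the values were -24.6, -30.8 and -18.6 at *LOC101907523* and -29.4, -32.8 and -26.8 at *PTPRN2*.

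When the conversion group was added to it, the logistic model no longer called 3 of the 11, *LOC112449534* (adjusted p = 0.0569), *LOC101907523* (adjusted p = 0.0617) and *PTPRN2* (adjusted p = 0.0626), the latter pair being both DMCs higher in Tough. On unscaled reads the same 3 were not called (adjusted p of 0.0565, 0.0711 and 0.0693 in the logistic model).

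Leaving out each animal in turn, the DMCs of *MEI4*, *FNDC3B*, *HSD17B14* and XR_003036495 stayed DMCs in 12 of 12 fits. That of *FBXO32* did so in 10, that of *MEST* in 8, those of *GRIK1* and *SLC10A4* in 6, those of the 2 LOC genes in 4 and that of *PTPRN2* in 3. The differences kept their sign in every fit. The number of isolated DMCs ranged from 10 to 24. It was 21 without Tough 1, 19 without Tender 9 and 24 without Tender 10, while the share of DMCs in the whole table rose to 0.0308%, 0.0257% and 0.0294%. With an F-test in place of the chi-square test, 0 isolated cytosines passed (0.0% of the whole table), with 1694 at an unadjusted p under 0.05.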

How the data were processed

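RRBS libraries were made from *longissimus thoracis* DNA of 12 Nelore steers, 6 Tough and 6 Tender, and sequenced as single-end reads. Per the labels and the study's methods, the authors used FastQC 0.10.1, Trim Galore 0.4.1, Bismark 0.23.0, the ARS-UCD1.2 (bosTau9) genome and methylKit 1.8.1 in R 3.5.1. Cytosines with fewer than 10 reads or above the 99.9th coverage percentile had been filtered out, coverage had been normalised, and only cytosines present in every animal remained. The deposited methylated, unmethylated and total reads were therefore used as scores and not as raw counts: each animal's reads carry a scaling factor of the authors (between 1 and 1.27) and rounding. Dividing by the factor gave whole reads back, which served as an alternative. The logistic model planned for read counts was kept.

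Percent methylation was methylated over methylated plus unmethylated scaled reads. Distances were measured along the coordinates of the table on each autosome. Logistic regression on group was corrected for overdispersion by McCullagh and Nelder's factor, never set under 1, and used a chi-square test and Benjamini-Hochberg adjustment over all 635469 cytosines, as the multiple-testing method of the study is not given in the sources used here. Means were compared with exact two-sided permutation tests of 6 against 6 animals (smallest p 0.00216) or sign flips over 12 animals. The scripts used Python 3.11.15, numpy 2.4.6, pandas 2.3.3, scipy 1.17.1 and matplotlib 3.10.9, with limma 3.58.1 as an alternative, and were tested on simulated data. The genes and locations of DMCs were taken from the study's supplementary files, as was the bisulfite conversion group, from the unmethylated spike-in of each library. Its cut was placed in a gap between animals, and how distinct the 2 conversion groups are was not tested. The supplement names animals by group letter and number, and these were assumed to be the label titles with the same number, so every value by conversion group rests on that match.

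The isolated cytosines and the tests were chosen with earlier results of these data known. Every isolated DMC was counted, and the 5 with the smallest p in each direction, the cytosine with the largest SD and the 5 with the smallest SD were named by a fixed rule. Alternatives were other distances, a higher coverage minimum, unscaled reads, summed strands, no all-or-none cytosines, pooled reads, other tests and thresholds, and leaving out each animal. Sequence context and a planned list of muscle genes were not analysed here, since they need a genome of this build. Each steer gave 1 library, so the p-values of the permutation tests measure the spread between these steers. Those on the deviations within a group do so only approximately, since the deviations share animals. Those of the logistic model rest on the pooled reads of each group. Its chi-square test takes the estimated overdispersion factor as known, so these p-values do not measure that spread alone.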

Additional observations from a re-analysis of the deposited data

Results flagged for a closer look

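Of 60 groups of 6 animals examined for a single animal far from the rest, 6 had one, and chance alone gives about 1 in 20. Median coverage at isolated cytosines was 28 reads in Tough 6 and 34 to 37 in the other Tough animals. Tough 2 had a mean of 93.3% at isolated cytosines of 90% methylation and above, where the other Tough animals had 94.4% to 95.1%. In the Tender group, the mean deviation from the other animals at isolated cytosines of 5% to 20% methylation was 10.5 percentage points in Tender 8 and 8.21 to 8.99 in the others.

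The remaining 3 were at single isolated cytosines. At chromosome 18 position 55436914, closest to *HSD17B14*, Tough 3 had 36.7% against 7.41% to 17.1% in the other Tough animals. At chromosome 4 position 118869670, closest to *PTPRN2*, Tender 7 had 10.5% against 0% in the other Tender animals. At chromosome 11 position 95336345, 1 of the 5 isolated cytosines with the smallest SD, Tender 8 had 30.1% against 19.1% to 23.0% in the others.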

How the results depend on the processing

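The isolated-minus-other level kept its direction and its side of the threshold under 7 alternatives (39.2 to 43.5 percentage points) and without each animal in turn (40.7 to 40.9). The lower spread at 20% to 80%, -0.719 as a difference of mean SD, was -0.773 to -0.676 without each animal, -0.421 with both strands summed and -0.462 without all-or-none cytosines, but the median overdispersion factor reversed it (0.201). The Tender minus Tough shift was 0.377 to 0.846 without each animal (lowest without Tough 2), 1.53 within the higher conversion group and 0.0478 within the lower. The difference of shifts was 0.0426 to 0.456 without each animal and 0.945 within the higher conversion group. It reversed to -0.0583 within the lower conversion group and to -0.565 with pooled reads (exact permutation p = 0.294). The 11 isolated DMCs (0.019% of the whole table called) became 2 with at least 20 reads per animal (0.0136%), 0 with the F-test, 0 with limma (1990 at an unadjusted p under 0.05), 99 without overdispersion correction (0.225%) and 57 at a difference above 10% (0.0864%). The minimum of 20 reads left 10940 isolated cytosines and only 2 of the 11 DMCs to be tested, and both were called. The other 6 alternatives gave 8 to 11, among them 10 with the conversion group as covariate (0.0231%), which called 3 of the 11 no longer, and 8, all higher in Tender, on unscaled reads (0.0143%), and leaving out each animal gave 10 to 24. Other tests, thresholds and minimum reads leave the difference at a single DMC as it was, so they could not reverse it. On unscaled reads, where the values themselves changed, the differences at the 11 DMCs kept their sign. Apart from the alternatives that change which cytosines or reads are used, the cause of these changes was not tested. No paired analysis was possible because the groups consist of different steers and the labels give no pairing between them. Depth limits single calls: 10 reads leave a binomial standard error of 15.8% at 50% methylation.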
